A study of Homo sapiens with 4 samples.

Results

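The genes described here, TKT, TALDO1, PGD and ME1, encode enzymes of the pentose phosphate pathway and of NADPH supply, and the data are the BACH1 binding sites mapped around them by chromatin immunoprecipitation sequencing (ChIP-seq) in 2 human airway epithelial cell lines. Calu3 is a lung adenocarcinoma line and 16HBE14o- is an immortalised line from bronchial epithelium. Both were grown in DMEM with 10% FBS, the same rabbit antibody against BACH1 was used for all 4 samples, and the labels name no treatment, knockdown or control library. Each line had 2 replicates, which the submitters combined into 1 list of peaks through the irreproducible discovery rate, so no value below has a spread between replicates and no difference between the lines has a replicate check. A peak was assigned to a gene when its summit lay in the hg19 window that spans the gene and about 50 kb on either side. By that rule 17 of the 13661 rows of both lists belong to these genes, 13 of 10246 in Calu3 and 4 of 3415 in 16HBE14o-.

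The pentose phosphate pathway branches off glycolysis. Its oxidative branch, to which PGD belongs, yields NADPH and a pentose phosphate, and its non-oxidative branch, run by transketolase (TKT) and transaldolase (TALDO1), returns pentose phosphates to glycolytic intermediates. Cytosolic malic enzyme (ME1) makes NADPH outside this pathway, from malate. NADPH keeps the glutathione and thioredoxin systems reduced, and these genes are known targets of the activator NRF2. BACH1 is a haem-regulated repressor that pairs with small MAF proteins and can occupy the same antioxidant response elements as NRF2.

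BACH1 peaks were present in the Calu3 list in the windows of all 4 genes and in the 16HBE14o- list in those of TKT, PGD and ME1. The Calu3 list held 4 peaks in the TKT window, 3 in that of TALDO1, 5 in that of PGD and 1 in that of ME1. The 16HBE14o- list held 2 at TKT, 1 at PGD, 1 at ME1 and 0 at TALDO1. The strongest sites of the set were at TKT in both lines. The column that ranks the peaks is a fold enrichment in Calu3 and a peak signal on an unstated scale in 16HBE14o-. These values therefore rank peaks within their own list and do not compare the lines. A percentile below is the share of rows of the same list with a rank lower down.

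**Figure D1:**
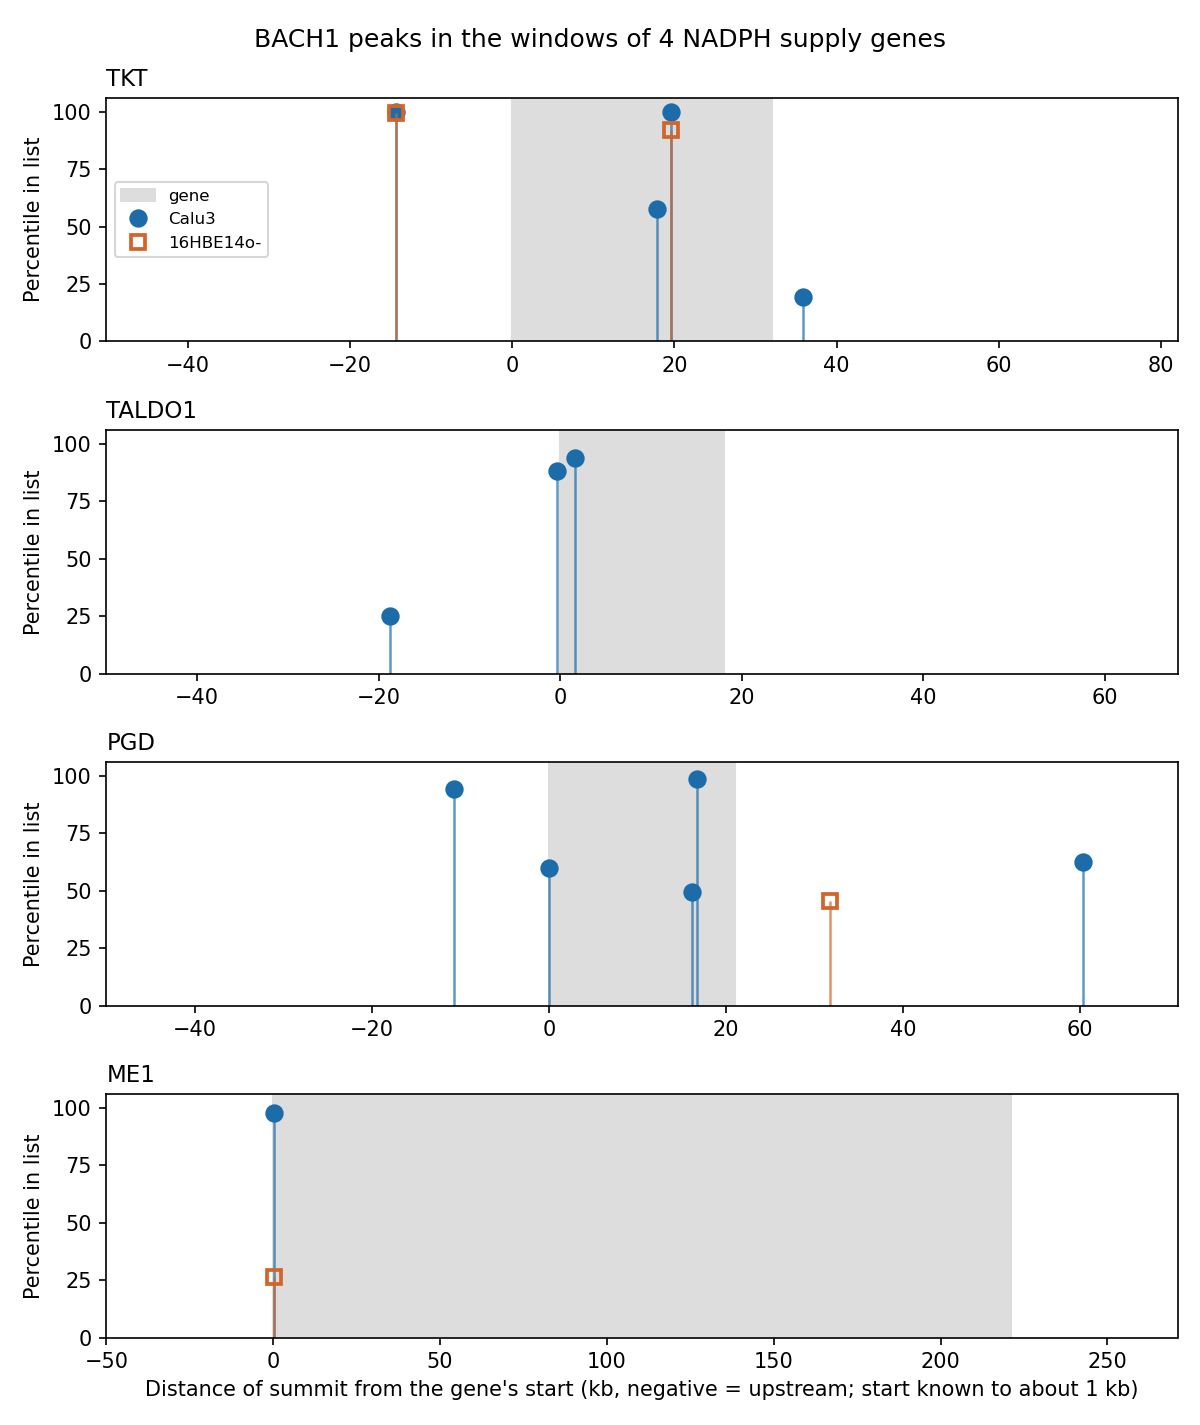
Each panel plots the BACH1 peaks of one gene window: the horizontal axis is the distance of the summit from the gene's start in kb (negative is upstream, grey is the gene) and the vertical axis is the percentile of the peak within its own list. TKT has a pair of sites in both lists, ME1 has a site at its start in both, and TALDO1 has peaks in the Calu3 list only.

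Gene bounds were taken as the window edges moved inwards by 50 kb, which places them to about 1 kb. The windows exceed the RefSeq length of their gene by 49.8 to 50.3 kb on each side, if the margin is equal on both. Exons, introns and UTRs of the hg19 build were not used here, so a site inside a gene is not assigned to any of them. Of the 13 Calu3 peaks, 3 lay within 1.5 kb of a gene start, 5 inside a gene, 3 upstream and 2 downstream. The strongest TALDO1 peak, 1.6 kb from the estimated start, was counted inside but may belong at the start, given the precision of about 1 kb. The 4 peaks of 16HBE14o- fell 1 in each of these places. A peak upstream or downstream is counted by the window rule, and position alone does not tie it to that gene rather than a neighbour.

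Transketolase carries the non-oxidative branch, and TKT (gene ID 7086, minus strand of chromosome 3) had the highest-ranked sites of the 4 genes. The first site lay 14.3 kb upstream of the gene, on the side of its protein-coding neighbour DCP1A, and cannot be assigned to either gene by position alone. In Calu3 it covered chr3:53303998-53304653 with a fold enrichment of 52.6 and a −log10 q of 292, and it ranked 2 of 10246. In 16HBE14o- it covered chr3:53304213-53304347 with a signal of 189 and ranked 23 of 3415. It was the highest-ranked peak of chromosome 3 in both lists, among 1388 rows in Calu3 and 201 in 16HBE14o-. Both lists place the summit at the same base, 53304278.

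The second TKT site lay inside the gene, 19.6 kb from its start. In Calu3 it covered chr3:53270016-53270674, had a fold enrichment of 39.4 and a −log10 q of 154, and ranked 15, or 3 on the chromosome. By its −log10 p it ranked 35 in the list. In 16HBE14o- it covered chr3:53270258-53270497, had a signal of 75.9 and ranked 264, or 6 on the chromosome. Its summits in the lists were 11 bp apart. The pair of TKT summits was separated by 33911 bp in Calu3 and by 33900 bp in 16HBE14o-. In the 16HBE14o- list these were the only peaks of the window, and the nearest rows beyond it were 567 kb past its lower edge and 4698 kb past its upper edge.

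Calu3 had a further pair of TKT peaks, both far down the list. One lay inside the gene at chr3:53272091-53272366, 1857 bp from the stronger site, with a fold enrichment of 4.57 and rank 4349. The other lay 3.9 kb past the end of the gene, on the side of PRKCD, at chr3:53254066-53254218, with a fold enrichment of 2.98 and rank 8255. That last peak had a −log10 q of 0 and so did not reach a q under 0.05. Neither had a counterpart in 16HBE14o-, where the nearest summits were 1846 bp and 16268 bp away.

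**Figure D2:**
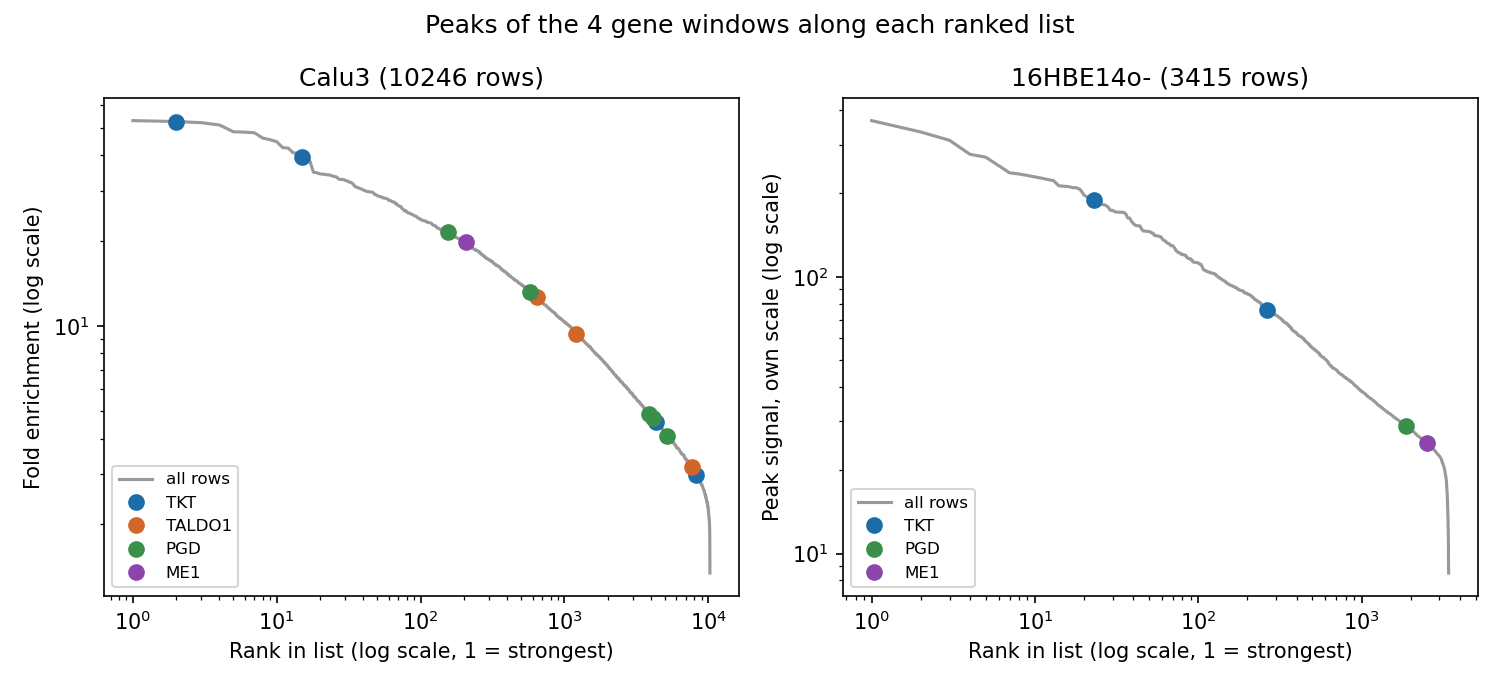
The grey line in each panel is every row of the list, sorted by fold enrichment (Calu3, left) or peak signal (16HBE14o-, right), with both axes on log scales and rank 1 the strongest. Coloured points are the peaks of the 4 gene windows: TKT holds ranks 2 and 15 in Calu3 and 23 and 264 in 16HBE14o-, and the points of PGD and ME1 in 16HBE14o- lie in the lower part of the curve.

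Transaldolase works beside transketolase in the same branch, and TALDO1 (gene ID 6888, plus strand of chromosome 11) had a group of peaks in Calu3 alone. The strongest covered chr11:748432-748822, 1.6 kb past the estimated start, with a fold enrichment of 12.6, a −log10 q of 46.4 and rank 640. With the start known to about 1 kb, this site may also lie within 1.5 kb of it. A neighbour covered chr11:746412-746802, 0.4 kb before the estimated start, with a fold enrichment of 9.40, a −log10 q of 22.5 and rank 1211. Their summits stood 2048 bp from each other. On chromosome 11 they ranked 34 and 57 of 392. The third peak, chr11:728114-728266, lay 18.8 kb upstream, towards EPS8L2, with a fold enrichment of 3.17, rank 7681 and a q of 0.98, which is above 0.05. In 16HBE14o- the row nearest to the strongest of these was 1045 kb away. Since sequencing depth is unknown, TALDO1 sites were not detected in 16HBE14o- but are not shown to be absent.

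PGD (gene ID 5226, plus strand of chromosome 1), an NADPH-producing enzyme of the oxidative branch, had the most Calu3 peaks of the 4 windows. That lead depended on the window width. With 20 kb on both sides of the gene, PGD and TKT held 4 Calu3 peaks each, and with 100 kb they held 5 each. The strongest PGD site of Calu3 lay inside the gene, 16.7 kb from the start, at chr1:10475484-10475841. It had a fold enrichment of 21.4 and a −log10 q of 62.1, and ranked 154 in the list and 17 of 843 on the chromosome. Ranked by −log10 p it stood at 337. A weaker peak at chr1:10475187-10475355 stood 443 bp from it, with a fold enrichment of 4.11 and rank 5162. The next strongest site lay 10.7 kb upstream of PGD, on the side of KIF1B, at chr1:10447860-10448468, with a fold enrichment of 13.2 and rank 573.

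The start of PGD itself carried a modest Calu3 peak, chr1:10458788-10459039, with a fold enrichment of 4.75 and rank 4099. The last Calu3 peak, chr1:10519209-10519391, lay 39.3 kb beyond the end of the gene on the side of its neighbour CENPS, with a fold enrichment of 4.90 and rank 3855. Whether this peak stood before, in or past CENPS was not determined, so it is not assigned to any gene. All 5 PGD peaks of Calu3 had a q under 0.05, the largest being 0.0099. In 16HBE14o- the window held 1 peak, chr1:10490674-10490913, 10.8 kb beyond the end of the gene, with a signal of 29.0 and rank 1861. It lay on the side of CENPS too. Its distance to CENPS was not measured, because the hg19 bounds of that gene were not used here. It may lie nearer to CENPS than to PGD and is assigned to neither gene. It met no Calu3 peak, and the nearest Calu3 summit, that of the strongest site, was 15104 bp away. The lines thus had no site of the PGD window in common in these lists, and the 16HBE14o- list had no peak inside PGD or at its start.

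ME1 (gene ID 4199, minus strand of chromosome 6), which supplies cytosolic NADPH from malate, had a single peak in each list, at the same place. In Calu3 it covered chr6:84140643-84141127, with a fold enrichment of 19.7, a −log10 q of 61.5 and rank 207, or 15 of 559 on the chromosome. By −log10 p the rank was 344. In 16HBE14o- it covered chr6:84140797-84141036, with a signal of 25.0 and rank 2512, or 197 of 258 on the chromosome. The summits were 23 bp apart and lay 0.1 kb from the estimated start of the gene, within the precision of that estimate. No other peak stood close to it: the nearest summit of the same list was 429 kb away in Calu3 and 1116 kb away in 16HBE14o-. The site was thus in the upper part of the Calu3 list (percentile 98.0) and in the lower part of the 16HBE14o- list (percentile 26.4). Ranks from lists of unequal length and scale do not show whether binding differed.

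The bases before the start of ME1, PGD and TALDO1 are shown because at least 1 list had a peak within 1.5 kb of each of these starts. They are the 250 bases upstream of the RefSeq start on GRCh38.p14, read 5′ to 3′ on the strand of the gene, and capitals mark matches to the cores TGANTCA (bound by AP-1 type factors) and TGACNNNGC (the antioxidant response element core). Their coordinates belong to another build than the hg19 peaks, so they show the promoter and not the bases under a peak.

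ME1, GRCh38.p14 chr6:83431052-83431301, minus strand: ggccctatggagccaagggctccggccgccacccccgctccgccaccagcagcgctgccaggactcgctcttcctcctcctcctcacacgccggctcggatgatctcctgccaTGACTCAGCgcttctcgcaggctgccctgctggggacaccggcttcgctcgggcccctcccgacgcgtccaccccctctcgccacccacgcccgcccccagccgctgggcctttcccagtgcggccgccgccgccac
PGD, GRCh38.p14 chr1:10398814-10399063, plus strand: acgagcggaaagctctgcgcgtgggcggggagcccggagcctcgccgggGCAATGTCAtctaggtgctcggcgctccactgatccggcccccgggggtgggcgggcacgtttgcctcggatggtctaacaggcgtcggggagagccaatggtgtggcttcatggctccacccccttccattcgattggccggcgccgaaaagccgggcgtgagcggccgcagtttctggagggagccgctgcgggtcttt
TALDO1, GRCh38.p14 chr11:747214-747463, plus strand: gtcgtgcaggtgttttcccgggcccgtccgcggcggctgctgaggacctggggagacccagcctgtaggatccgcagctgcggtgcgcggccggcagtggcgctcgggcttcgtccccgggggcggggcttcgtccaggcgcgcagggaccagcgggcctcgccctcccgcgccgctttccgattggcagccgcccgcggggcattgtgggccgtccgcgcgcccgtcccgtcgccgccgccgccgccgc

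The ME1 promoter held TGACTCAGC from 137 to 129 bases before the start, a run that matches both cores at once, since they share their first 7 bases there. The first 50 transcribed bases of ME1 held a further match to the antioxidant response element core on the opposite strand. The PGD promoter held 1 match to that core, TGACATTGC on the opposite strand, 201 to 193 bases before the start. Neither core was found in the promoters of TALDO1 and TKT, which says only that these letters are not in the window of 250 bases before to 50 after the start. The third motif searched, TGC placed before TGANTCA as in a joined MAF and AP-1 type site, was in none of the 4. Over all 35116 promoters of the RefSeq table, 7.71% held TGANTCA, 13.3% held TGACNNNGC and 0.416% held the third motif, counting both strands. Both cores stood in 1.42% of promoters, at any position and on either strand. The share with the cores on shared bases, as in ME1, was not counted. A match is a description of letters and not a measured site.

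The remaining genes of the pathway could not be placed on the hg19 peak lists, because no annotation of that build was used here, so they were searched only for the same motifs. The list searched held 17 such genes, with 27 promoters in the table. PGLS and H6PD are of the oxidative reactions, and RPIA, RPE, TKTL1, TKTL2 and SHPK of the non-oxidative ones. IDH1, IDH2, ME2, ME3, NNT, MTHFD1, MTHFD2, ALDH1L1, NADK and NADK2 were listed as possible other sources of NADPH or its precursor. The cofactor that each enzyme prefers was not considered. The antioxidant response element core was in promoters of 3 of the 17 genes: RPE, the ribulose phosphate epimerase, IDH1, the cytosolic isocitrate dehydrogenase, and MTHFD2, a mitochondrial folate enzyme. That is 3 of the 27 promoters (11.1%), under the 13.3% of all promoters. The TGANTCA core was in a promoter of 1, the transketolase-like gene TKTL1, or 3.70% of the 27 promoters against 7.71% of all. None of the 17 held the third motif.

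The lists had 3 sites of these genes in common: both strong TKT sites and the ME1 start. They were 3 of the 13 Calu3 peaks (23.1%, 95% Clopper-Pearson interval 5.04 to 53.8), against 15.3% of the whole Calu3 list that met a 16HBE14o- peak by at least 1 bp. They were 3 of the 4 peaks of 16HBE14o- (75.0%, interval 19.4 to 99.4), against 46.4% of that whole list. The intervals cover counting error only, and peaks of 1 window are not independent. With 13 and 4 peaks these shares are descriptions and were not tested against the lists. With a reciprocal overlap of 50% the number of shared sites was 0. The widths follow the lists: 98.4% of all 16HBE14o- rows are exactly 240 bp wide and none is over 246 bp, whereas Calu3 rows reach 2234 bp. At all 3 sites the 16HBE14o- peak lay entirely within the Calu3 peak. It was 135 bp wide against 656 bp at the upstream TKT site, 240 against 659 bp at the TKT site inside the gene, and 240 against 485 bp at ME1.

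**Figure D3:**
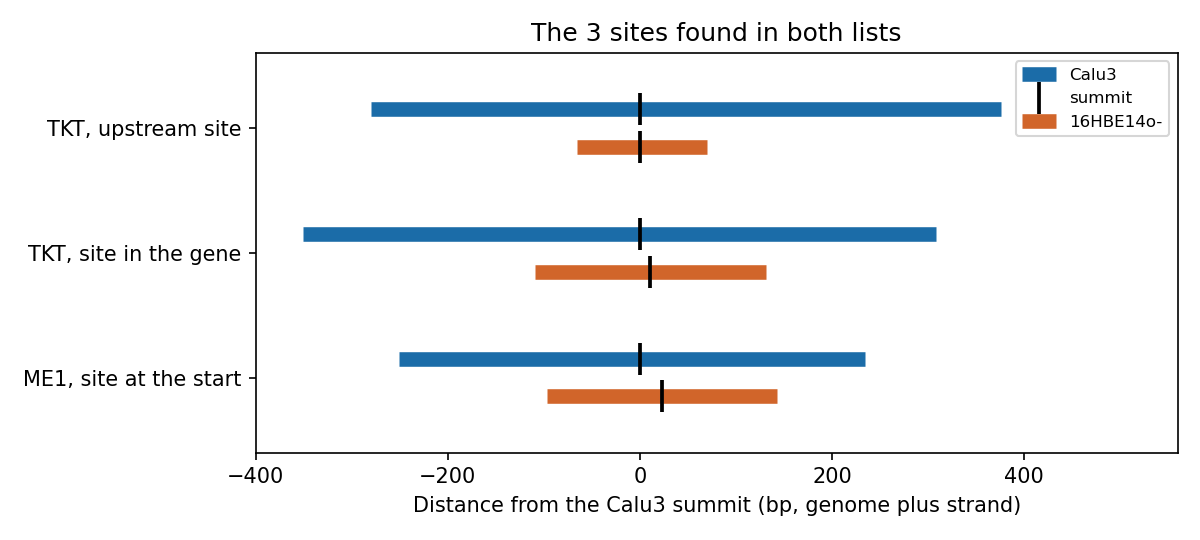
Bars show the extent of the peak in Calu3 (blue) and 16HBE14o- (orange) at the 3 sites found in both lists, with the Calu3 summit at 0 bp on the horizontal axis and black ticks at the summits. The summits are 0, 11 and 23 bp apart, and each 16HBE14o- peak lies inside the wider Calu3 peak.

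Of the 13 Calu3 peaks, 6 were in the strongest 10% of their list (46.2%, interval 19.2 to 74.9), where 10.0% of all rows are by construction. They comprised both strong TKT sites, the strongest TALDO1 site, the sites of PGD at ranks 154 and 573, and ME1. In 16HBE14o- it was 2 of 4 (interval for the percentage 6.76 to 93.2), both at TKT, against 9.99% of all rows. The Calu3 peaks outside the strongest 10% ranged from rank 1211 down to 8255. A deposited q under 0.05 was held by 11 of the 13 (84.6%, interval 54.6 to 98.1), against 73.3% of the Calu3 list. The median fold enrichment of the 13 was 9.40 and that of the list 4.13. Among the 4 peaks of 16HBE14o- the median signal was 52.4, against 30.1 over the list. The intervals in this paragraph cover counting error only, because peaks of the same window are not independent. The genes were also chosen with earlier results of these data known. The shares and medians are therefore descriptions, and enrichment among the strongest rows was not tested.

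Peaks stood closer together in the TKT, TALDO1 and PGD windows of Calu3 than over the list as a whole. The 4 windows, 0.692 Mb together, held 18.8 Calu3 peaks per Mb, 5.43 times the 3.46 per Mb of the span of the list. In 16HBE14o- they held 5.78 per Mb, 4.91 times the 1.18 per Mb of its list. By gene, the Calu3 ratio was 8.76 at TKT, 7.35 at TALDO1, 11.9 at PGD and 0.901 at ME1, whose window is the longest and held 1 peak. In 16HBE14o- the ratio was 12.9 at TKT, 7.02 at PGD and 2.65 at ME1. These ratios rest on 0 to 5 peaks each and set gene windows against all sequence, genes or not. Windows of other genes were not compared.

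**Figure D4:**
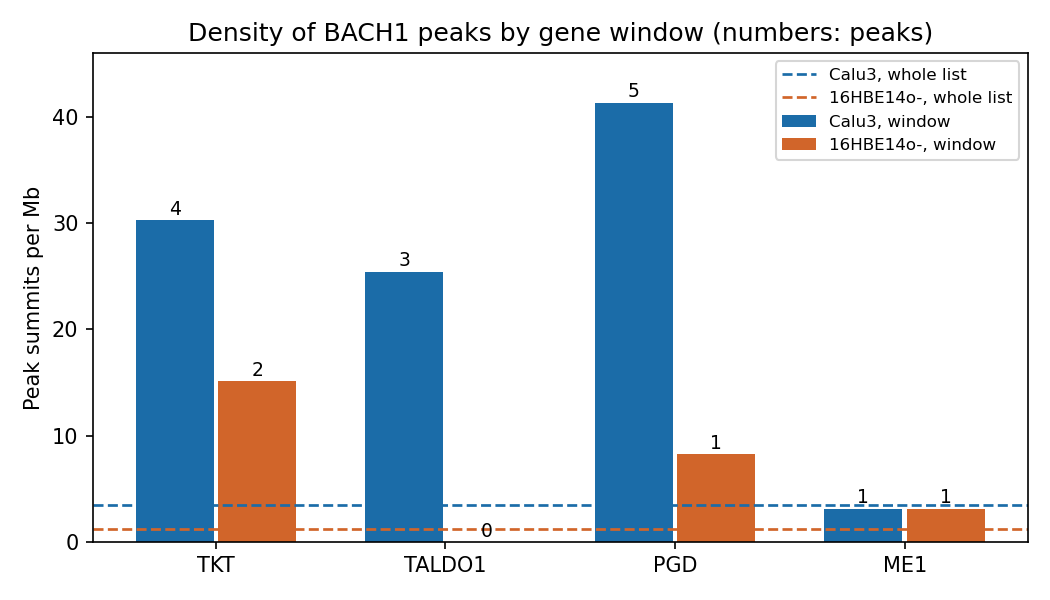
Bars give the peak summits per Mb of each gene window in Calu3 (blue) and 16HBE14o- (orange), with the number of peaks printed above, and dashed lines give the density of the whole list, 3.46 and 1.18 per Mb. The bars of TKT and PGD exceed the line of their own list in both lines, TALDO1 does so in Calu3, and the ME1 bar of Calu3 lies just under its line.

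Counting every peak with any base in a window, and not only its summit, gave the same 13 peaks in Calu3 and 4 in 16HBE14o-. The member nearest to an edge was the Calu3 peak downstream of PGD, 10.7 kb inside it. The nearest Calu3 peaks outside lay 41.7 kb above the TKT window, with rank 6177 and a fold enrichment of 3.69, and 61.8 kb below the PGD window, with rank 4560 and a fold enrichment of 4.47. In 16HBE14o- no row lay within 316 kb of any edge on the outside.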

How the data were processed

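BACH1 ChIP-seq was measured in Calu3 and 16HBE14o-, 2 replicates each, which the authors combined into 1 list per line, per the labels. The build is hg19, per the submitters' processing notes. The sources used here do not give the aligner, peak caller, filters or control, and depth is unknown. The Calu3 values deposited by the authors are a fold enrichment (a ratio, read as such from the file format and the values), −log10 p and −log10 q per peak, and a browser score. Those deposited for 16HBE14o- are a signal of unstated scale, a browser score and a further score that goes below 0. Both files give summit offsets.

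Rows with the summit (start plus offset) in the windows were kept as deposited, ranked within their list by fold enrichment or signal (tied rows share the better rank), and called shared where 1 bp or more overlapped a row of the other line. No test was run, since each line is 1 pooled list. Motifs were searched in the RefSeq promoters of GRCh38.p14. All peaks of the windows are named, and other genes only as neighbours in the RefSeq order or from the pathway list, of which 1 gene is not reported here. The genes and lists were chosen with earlier results of these data known. Coordinates are 1-based. Analyses used Python 3.11.15, numpy 2.4.6, scipy 1.17.1 and matplotlib 3.10.9, and the functions were tested on simulated data.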

Additional observations from a re-analysis of the deposited data

How the results depend on the processing

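Of the 84 values recomputed under another setting, 75 stayed within 1.5 times their value in the report and 9 moved further. These are not separate checks, and some values could not move. In Calu3 the browser score of these peaks was 10 times their −log10 p, cut to a whole number. Ranking by either is therefore almost the same check, counted for each. A count of 0 stays 0 when rows are merged or dropped, and dropping weak rows leaves the ranks of stronger ones. Ranked by browser score or by −log10 p instead of fold enrichment, the strongest PGD site of Calu3 went from rank 154 to 337 under both, and the ME1 site from 207 to 342 and 344, whereas the upstream TKT site kept rank 2. In 16HBE14o- the browser score moved ME1 from rank 2512 to 3256 and gave no rank for TKT, which is among 1615 rows tied at a score of 1000. With only the upper 50% of the rows, 16HBE14o- kept 2 of its 4 peaks, both at TKT, and the PGD and ME1 windows then held 0. Requiring a reciprocal overlap of 50% left 0 shared sites in either line, because the 16HBE14o- peaks cover 20.6%, 36.4% and 49.5% of the width of the Calu3 peaks, while summits within 100 bp kept all 3. Density over the same chromosomes gave ratios of 4.74 in Calu3 and 4.12 in 16HBE14o-. No paired analysis was possible because both replicates of a line stand in 1 combined list, so no replicate could be left out either. The planned motif search under the peaks was not run, since it needs an hg19 genome.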
